A study of Mus musculus with 22 samples.

Results

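Mouse embryonic stem cells depleted of one large-subunit ribosomal protein, Rpl14, were compared directly with cells depleted of another, Rpl11, to find which changes went with 1 of the 2 depletions. The comparison used 7 of the 22 libraries of the series, chosen by their labels alone. They were 2 siRpl14 and 2 siRpl11 libraries of set 1, which made the main test, and 2 siRpl14 libraries and 1 siRpl11 library of set 3, deposited in a separate table, which served as a check. No siNT library entered the main test. The siNT libraries of the same set are given beside the results for orientation.

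The cells were E14, a mouse embryonic stem cell line, kept on gelatin with leukemia inhibitory factor. RNA was sequenced 3 days after siRNA transfection. siRpl14 and siRpl11 denote those siRNAs given together with siNT, and siNT denotes siNT with siNT, so every group received siNT. The labels do not expand NT; siNT is taken here as the control.

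Rpl14 and Rpl11 are structural proteins of the large ribosomal subunit. When ribosome assembly is disturbed, free Rpl11, held with Rpl5 and a small ribosomal RNA, binds the ubiquitin ligase Mdm2, which otherwise restrains the transcription factor p53. A small share of mouse embryonic stem cells passes through a 2C-like state, in which genes of the 2-cell embryo are transcribed under the transcription factor Dux. Such cultures can also move from the naive towards the primed state of the epiblast, marked by Otx2 and the DNA methyltransferase genes Dnmt3a and Dnmt3b.

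Values are FPKM, the number of fragments per length of transcript and per size of library, on 24819 genes. Read counts were not used here, so depth is unknown. Over 8143 genes with a mean of at least 5 FPKM, the siRpl14 replicates of set 1 correlated at r = 0.975 and the siRpl11 replicates at r = 0.979, against 0.952 to 0.970 between the treatments, across genes that are not independent replicates. In set 3 the siRpl14 replicates correlated at r = 0.844, and 53.1 to 56.2% of genes were listed at 0, against 31.0 to 31.6% in the 4 libraries of set 1. All 6 markers of embryonic stem cells were above 1 FPKM in every library used, and 4 fibroblast markers summed to at most 0.848 FPKM. Whether replicates were separate cultures is not stated in the labels, and p-values therefore reflect only the spread among these libraries, which may be technical.

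The siRNA targets were measured first. Rpl14 had 893 and 402 FPKM with siRpl14, against 1465 and 1447 FPKM with siRpl11. That was 60.2% and 27.1% of the siNT mean with siRpl14, and 98.8% and 97.5% with siRpl11. The 2 siRpl14 libraries differed from each other in depletion, and the difference of -1.28 ± 0.35 (SE) on the log2(FPKM + 1) scale did not pass the test over all genes (limma, adjusted p = 0.0850). With 1 library left out, the Rpl14 difference ran from -1.85 to -0.70. Here and below, such a fit has 1 library in a group and takes its spread from the other group. Its p-values therefore do not measure variation within the reduced group. Rpl11 stood at 681 and 624 FPKM with siRpl14, against 260.1 and 113 FPKM with siRpl11. These were 91.4% and 83.7% of the siNT mean with siRpl14, and 34.9% and 15.2% with siRpl11. The difference in Rpl11, 1.92 ± 0.36 (limma, adjusted p = 0.0372), passed the test but not when siRpl14 replicate 1 or 2 was left out (limma, adjusted p = 0.296 and 0.285). The pseudogene Rpl14-ps1, which resembles Rpl14 and may take some of its reads, was lower by 1.29 (log2 difference -1.29 ± 0.26, limma, adjusted p = 0.0432), and not without siRpl11 replicate 2 (limma, adjusted p = 0.0751). In each library the targeted gene was the one that stood farther below its siNT level, and the extent of depletion varied within both groups.

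**Figure D1:**
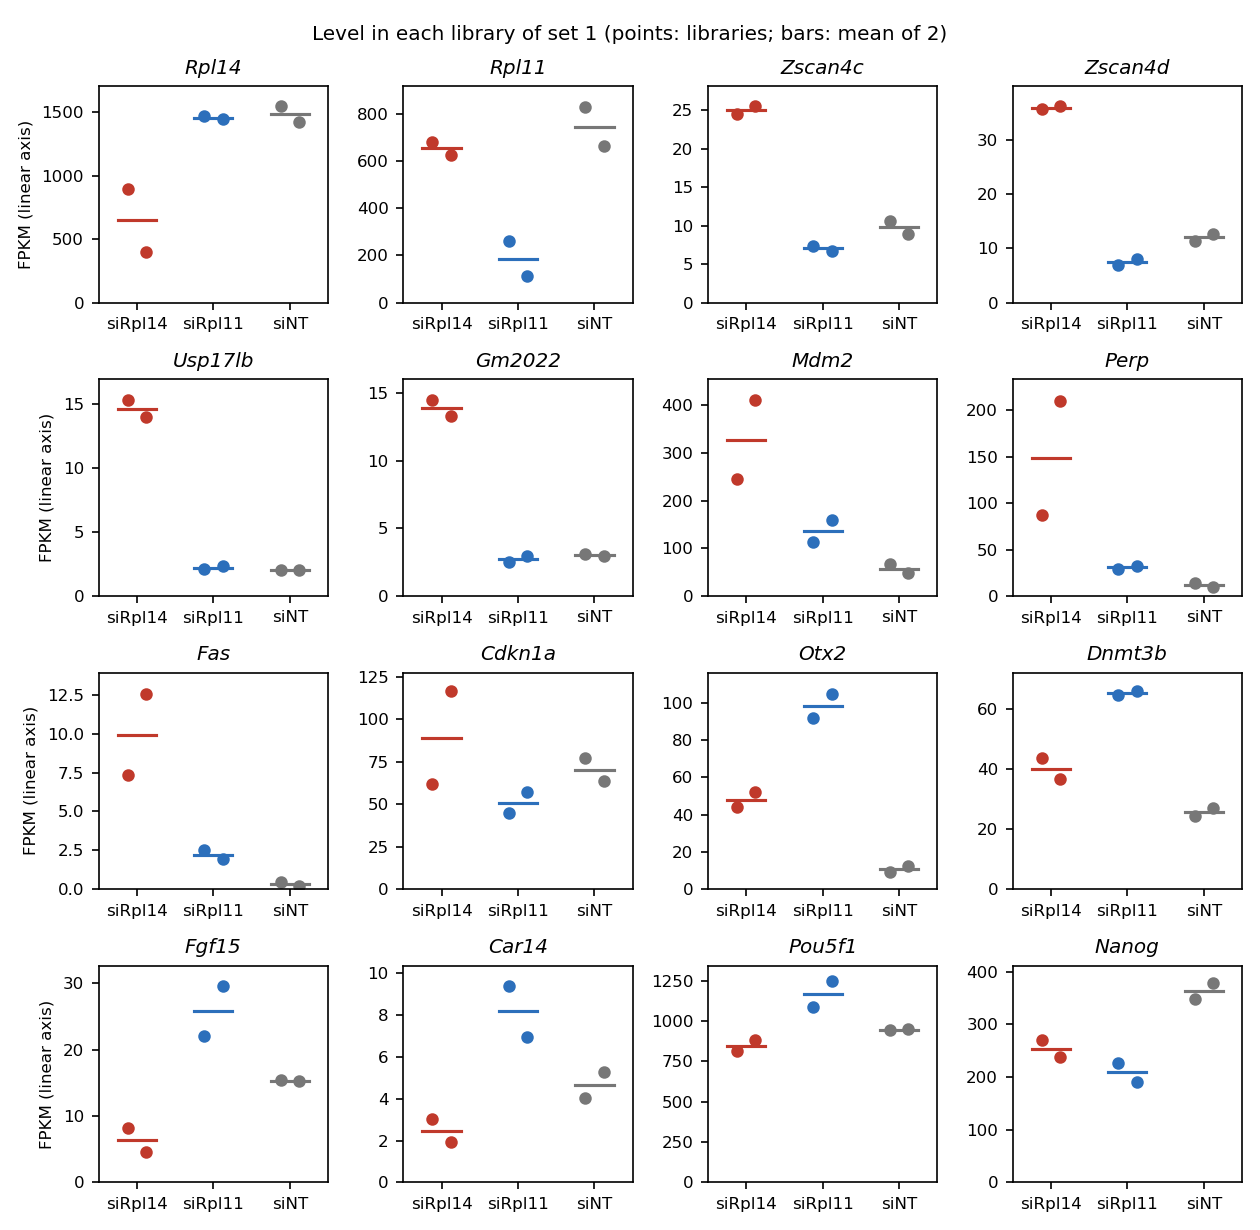
Level in FPKM (linear axis from 0) of 16 genes in each library of set 1, siRpl14 in red, siRpl11 in blue and siNT in grey; points are libraries and bars the mean of 2. The Zscan4c and Zscan4d panels show siRpl11 below siNT and siRpl14 above both, the Usp17lb panel shows siRpl11 close to siNT, and the Otx2 panel shows siRpl14 between siRpl11 and siNT.

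Cells depleted of Rpl14 differed from cells depleted of Rpl11 mostly by higher transcript levels. Of 11626 genes tested, 734 (6.31%) were higher with siRpl14 and 56 (0.482%) were lower (limma with Benjamini-Hochberg adjustment), 6.8% in all, and 371 of the higher and 22 of the lower genes differed at least 2-fold. At an unadjusted p under 0.05 there were 3046 genes. Of the genes tested, 412 passed the low-value filter only through the siRpl14 libraries, so their direction was fixed. Among the other 11214 genes, 569 were higher and 56 lower. Genes that passed only through the siRpl11 libraries, such as Snora44, were not set apart. The 2 siRpl14 libraries lay above both siRpl11 libraries for 41.7% of the genes tested and below both for 15.5%. The median difference of all genes was 0.12 on the log2 scale, and rescaling the libraries by median ratios brought it close to 0 and quantile normalization to -0.04. Higher genes were 92.9% of the calls as deposited, 82.7% after median-ratio rescaling (444 higher and 93 lower) and 85.5% after quantile normalization (194 higher and 33 lower). With no filter on low values 13 genes were higher and 1 lower. Without siRpl14 replicate 2 the higher genes numbered 316, and without siRpl11 replicate 2 there were 337 higher and 12 lower. In all 4 fits that left out 1 library, 225 of the higher and 9 of the lower genes kept their call.

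**Figure D2:**
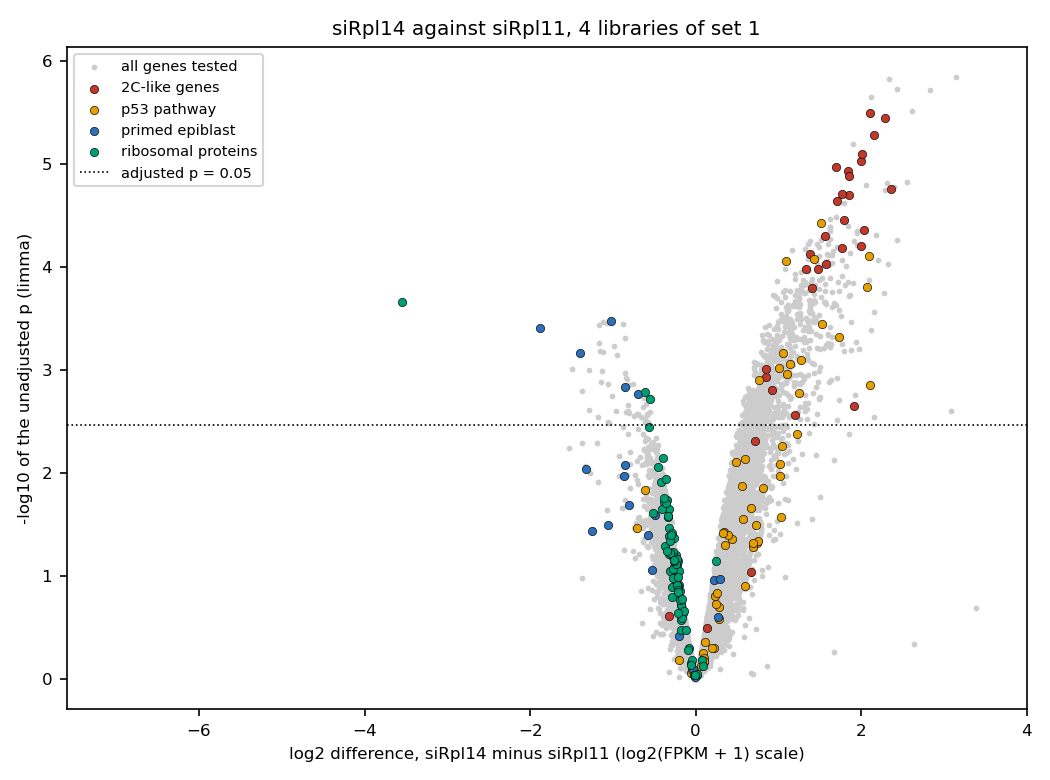
Each gene tested in set 1 by its log2 difference, siRpl14 minus siRpl11 (x axis), and the -log10 of its unadjusted p from limma (y axis), with members of 4 gene groups in colour. Points above the dotted line pass the adjusted threshold of 0.05; 734 lie to the right of 0 and 56 to the left, and the 2C-like genes sit high on the right.

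Genes of the 2C-like state were higher with siRpl14 than with siRpl11. Against the shared siNT libraries their median difference was 1.31 with siRpl14 and -0.16 with siRpl11. The list holds 56 names, of which 44 are in the table and 31 passed the low-value filter (1 FPKM or more in 2 or more of the 4 libraries). Of those, 10 passed only because of the siRpl14 libraries and so had to differ. Among the other 21 members, 18 were higher and none lower, against 569 of 11214 genes over the whole table chosen in the same way. Their median difference was 1.84, against 0.11 for those 11214 genes. With the 10 included, 27 of 31 were higher, with a median of 1.71, which is 1.59 above the median of all genes tested. Many of the members are near-identical copies (Zscan4, Usp17l and Gm genes), and the deposited values may split or share reads between them, so they are not independent measurements.

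Zscan4 genes encode DNA-binding proteins that mark the 2C-like state and act on telomeres. The promoters of Zscan4c and Zscan4d are shown because they make visible how alike these 2 copies are. They run from 250 bases before to 50 bases after the gene start and come from RefSeq on GRCm38.p6, a build that differs from the mm9 of the files. Zscan4c is at chr7:11005495-11005794 on the plus strand and Zscan4d at chr7:11166099-11166398 on the minus strand, and capitals mark the motif TATAAA, which begins 54 and 65 bases before the gene start.

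Zscan4c: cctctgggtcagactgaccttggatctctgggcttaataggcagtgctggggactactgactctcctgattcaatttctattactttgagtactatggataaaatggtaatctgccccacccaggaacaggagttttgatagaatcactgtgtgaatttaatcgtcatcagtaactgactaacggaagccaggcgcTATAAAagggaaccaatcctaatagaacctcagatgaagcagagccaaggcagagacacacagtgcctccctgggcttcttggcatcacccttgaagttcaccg
Zscan4d: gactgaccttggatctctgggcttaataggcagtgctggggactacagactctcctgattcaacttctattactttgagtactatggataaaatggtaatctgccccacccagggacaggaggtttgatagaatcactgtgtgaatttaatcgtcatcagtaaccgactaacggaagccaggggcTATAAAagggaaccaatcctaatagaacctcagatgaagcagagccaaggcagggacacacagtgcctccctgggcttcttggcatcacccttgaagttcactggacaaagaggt

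The 2 promoters were identical at 281 of 311 aligned positions (90.35%). Over all pairs among Zscan4b, Zscan4c, Zscan4d and Zscan4f, identity ran from 77.54% to 95.67%. TATAAA, searched on both strands, was in 8 of the 24 2C-like genes that have a promoter entry, and in 13.62% of all 32851 promoters. Zscan4c stood at 24.5 and 25.6 FPKM in siRpl14 libraries, against 7.42 and 6.68 FPKM in siRpl11 libraries and 10.6 and 8.96 FPKM in siNT libraries. Zscan4d was at 35.7 and 36.2 FPKM with siRpl14, against 7.02 and 8.11 FPKM with siRpl11 and 11.3 and 12.7 FPKM with siNT. For both genes the 2 siRpl14 libraries agreed closely and lay above all others, and the siRpl11 libraries were the lowest. The log2 differences were 1.70 ± 0.13 for Zscan4c (limma, adjusted p = 0.00894) and 2.11 ± 0.13 for Zscan4d (limma, adjusted p = 0.00516). Set against the shared siNT libraries, Zscan4c was higher by 1.28 ± 0.12 with siRpl14 (limma, adjusted p = 0.00118) and lower with siRpl11, at -0.42 ± 0.12 (limma, adjusted p = 0.0276). Zscan4d was higher by 1.51 ± 0.12 with siRpl14 (limma, adjusted p = 0.000665) and lower with siRpl11, at -0.60 ± 0.12 (limma, adjusted p = 0.00655).

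Usp17l genes encode deubiquitinating enzymes. Usp17lb was at 15.3 and 14.01 FPKM with siRpl14, against 2.09 and 2.34 FPKM with siRpl11 and 2.00 and 2.03 FPKM with siNT. The siRpl11 libraries lay just above siNT and both siRpl14 libraries far above, a difference of 2.29 ± 0.14 (limma, adjusted p = 0.00516). Usp17la had 11.4 and 10.6 FPKM with siRpl14, against 1.75 and 1.64 FPKM with siRpl11 and 2.32 and 1.83 FPKM with siNT. Usp17le, the member with the largest difference (2.36 ± 0.19, limma, adjusted p = 0.00949), had 19.9 and 15.7 FPKM with siRpl14, against 3.14 and 2.18 FPKM with siRpl11 and 5.26 and 5.14 FPKM with siNT. With siRpl11, Usp17le was below siNT (-0.77 ± 0.18, limma, adjusted p = 0.0124), so the 2 depletions lay on opposite sides of the control.

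Gm5039 was at 24.3 and 22.5 FPKM with siRpl14, against 4.55 and 5.54 FPKM with siRpl11, and Gm2022 at 14.5 and 13.3 FPKM, against 2.52 and 2.97 FPKM. Tmem92, a transmembrane protein gene, was at 18.9 and 13.1 FPKM with siRpl14, against 3.53 and 2.91 FPKM with siRpl11 and 3.52 and 2.83 FPKM with siNT. These 3 genes were higher by 1.99 to 2.02 (limma, adjusted p = 0.00776 to 0.0142). Zfp352, a zinc-finger gene of the 2-cell embryo, passed the filter only through the siRpl14 libraries, with 2.34 and 2.07 FPKM, against 0.3002 and 0.242 FPKM with siRpl11. Dux itself was at 1.45 and 1.11 FPKM with siRpl14, against 0.482 and 0.296 FPKM with siRpl11 and 0.368 and 0.202 FPKM with siNT. Dux too passed the filter only through siRpl14, which fixes its direction, and the difference of 0.71 ± 0.17 did not pass (limma, adjusted p = 0.0615, and 0.0196 with all 8 libraries in the fit). Pramef12, Nelfa and Pif1 are the other 3 members without a call, and the Pramef12 difference ran from 0.16 to 1.17 with 1 library left out. For Nelfa, a subunit of the negative elongation factor of transcription, the 95% interval of the difference ran from -0.17 to 0.43 (limma, adjusted p = 0.538). The summed level of the 5 2C-like markers in the table was 75.4 and 75.6 FPKM with siRpl14, against 17.0 in each siRpl11 library and 25.1 and 23.9 FPKM with siNT. In bulk RNA, more cells of a kind and more RNA per cell cannot be told apart.

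Genes with large differences outside the 2C-like list include Cpz, Matn1, Gpx3 and Man2b1, whose siRpl14 libraries lay above all siRpl11 and siNT libraries. Sct, which encodes the hormone secretin, was at 13.95 and 17.6 FPKM with siRpl14, against 0.951 and 0.808 FPKM with siRpl11 and 2.93 and 1.42 FPKM with siNT. Sct passed the low-value filter only through the siRpl14 libraries, so that its direction was fixed, and its difference of 3.15 ± 0.17 is given as a description. With siRpl11 it lay below siNT (-0.71 ± 0.24, limma, adjusted p = 0.0448). Cpz, a secreted carboxypeptidase, was at 12.6 and 15.3 FPKM with siRpl14, against 1.061 and 1.13 FPKM with siRpl11 and 0.457 and 0.349 FPKM with siNT. Matn1, a matrix protein of cartilage, was at 15.8 and 18.3 FPKM with siRpl14, against 2.17 and 1.73 FPKM with siRpl11 and 1.59 and 1.26 FPKM with siNT. Neither group overlapped the other for these genes, and the differences were 2.83 ± 0.16 for Cpz and 2.61 ± 0.16 for Matn1 (limma, adjusted p = 0.00516 each).

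Gpx3, the secreted glutathione peroxidase, was at 68.9 and 82.8 FPKM with siRpl14, against 13.4 and 12.9 FPKM with siRpl11 and 13.6 and 10.5 FPKM with siNT. Man2b1, a lysosomal mannosidase, was at 75.3 and 85.2 FPKM with siRpl14, against 15.6 and 14.4 FPKM with siRpl11 and 18.6 and 17.4 FPKM with siNT. Both were abundant enough that the difference is little affected by the pseudocount of 1 FPKM, at 2.43 ± 0.14 for Gpx3 and 2.34 ± 0.13 for Man2b1 (limma, adjusted p = 0.00516 each). Slc4a11, a membrane transporter, was higher by 2.39 ± 0.19, and the folate enzyme gene Aldh1l1 by 2.29 ± 0.19 (limma, adjusted p = 0.00949 each). Ms4a10, a membrane-spanning protein gene, was higher by 2.44 ± 0.24 (limma, adjusted p = 0.0142). Dusp2, a MAP kinase phosphatase, and Rgs14, a regulator of G-protein signalling, also passed the low-value filter only through the siRpl14 libraries, with differences of 2.33 ± 0.26 for Dusp2 and 2.32 ± 0.19 for Rgs14. Fgfbp1, a secreted carrier of fibroblast growth factors, was at 37.7 and 124 FPKM with siRpl14, against 4.21 and 11.8 FPKM with siRpl11. Its replicates differed widely within both groups, and its call (3.09 ± 0.62, limma, adjusted p = 0.0436) was lost without any 1 of the 4 libraries (limma, adjusted p = 0.134 to 0.457).

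Among targets of p53, some genes of cell death, arrest, and repair and metabolism were higher with siRpl14. None of the feedback genes, Trp53 and Mdm2 among them, passed the direct test. Of 61 names, 60 are in the table and 56 were tested; 15 were higher (26.8%) and 0 lower, against 6.31% and 0.482% of all genes tested. The median was 0.60, which is 0.47 above that of all genes. Both siRpl14 libraries lay above both siRpl11 libraries for 40 of the 56, beside 41.7% of all genes tested. Without siRpl14 replicate 1, 28 were higher, and after quantile normalization 6. Of the 15, 12 kept their call in all 4 fits with 1 library left out.

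In the feedback arm none of 9 genes passed. Trp53, the gene of p53, was at 257 and 396 FPKM with siRpl14, against 432 and 631 FPKM with siRpl11 and 143 and 177 FPKM with siNT. The difference was -0.71 ± 0.26 (limma, adjusted p = 0.156), and ran from -1.02 to -0.40 with 1 library left out. Mdm2, which encodes the ligase that limits p53 and is itself a p53 target, was at 244 and 410.3 FPKM with siRpl14, against 114 and 159 FPKM with siRpl11 and 66.0 and 47.7 FPKM with siNT. The Mdm2 groups did not overlap and every knockdown library exceeded siNT, but the difference of 1.23 ± 0.28 narrowly missed the threshold (limma, adjusted p = 0.0569). It ran from 0.85 to 1.60 with 1 library left out, and passed with all 8 libraries of set 1 in the fit (limma, adjusted p = 0.0265). Against the shared siNT libraries, Mdm2 was higher by 2.48 ± 0.28 with siRpl14 (limma, adjusted p = 0.00182) and by 1.25 ± 0.28 with siRpl11 (limma, adjusted p = 0.0102).

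Among 13 cell death genes tested, 6 were higher. Perp, a p53-induced membrane protein, was at 87.4 and 210.4 FPKM with siRpl14, against 29.4 and 32.2 FPKM with siRpl11 and 14.4 and 10.1 FPKM with siNT. Fas, a death receptor, was at 7.37 and 12.5 FPKM with siRpl14, against 2.51 and 1.94 FPKM with siRpl11 and 0.475 and 0.182 FPKM with siNT. Both genes were ordered siRpl14, siRpl11, siNT without overlap, and the differences were 2.10 ± 0.38 for Perp (limma, adjusted p = 0.0339) and 1.73 ± 0.25 for Fas (limma, adjusted p = 0.0227). The Perp call was lost without siRpl11 replicate 1 or 2 (limma, adjusted p = 0.196 and 0.275). Apaf1, the scaffold of the apoptosome, was at 25.5 and 35.5 FPKM with siRpl14, against 14.2 and 12.1 FPKM with siRpl11 and 10.7 and 10.6 FPKM with siNT (1.14 ± 0.19, limma, adjusted p = 0.0284). Trp53i11, Pidd1 and Ei24 were the other 3, at 0.76 to 1.09 (limma, adjusted p = 0.0146 to 0.0326). Pidd1 was not called without siRpl14 replicate 2 (limma, adjusted p = 0.0509), nor Ei24 without siRpl14 replicate 2 or siRpl11 replicate 2 (limma, adjusted p = 0.0748 and 0.104). Bax, the pore-forming death effector, had 262 and 320.5 FPKM with siRpl14, against 257 and 288 FPKM with siRpl11, and the 95% interval of its difference ran from -0.26 to 0.44. For Bbc3, which encodes the death activator Puma, the interval was -0.20 to 0.77.

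Of 11 arrest genes, 3 were higher. Sfn, a cell-cycle checkpoint protein of the 14-3-3 family, was at 21.7 and 36.8 FPKM with siRpl14, against 6.46 and 5.54 FPKM with siRpl11 and 11.3 and 10.2 FPKM with siNT. Btg2, an antiproliferative factor, was at 64.2 and 97.5 FPKM with siRpl14, against 24.9 and 29.0 FPKM with siRpl11 and 29.3 and 20.5 FPKM with siNT. The differences were 2.07 ± 0.25 for Sfn (limma, adjusted p = 0.0174) and 1.52 ± 0.21 for Btg2 (limma, adjusted p = 0.0204), and Sfn with siRpl11 lay below both siNT libraries. Zfp365, which limits telomere and replication damage, was higher by 1.25 ± 0.23 (limma, adjusted p = 0.0369). Cdkn1a, the p21 inhibitor of cyclin-dependent kinases, was at 61.6 and 117 FPKM with siRpl14, against 44.5 and 57.0 FPKM with siRpl11 and 77.2 and 63.5 FPKM with siNT. Its difference of 0.74 ± 0.30 did not pass (limma, adjusted p = 0.186), and ran from 0.29 to 1.19 with 1 library left out. Of 23 repair and metabolism genes, 6 were higher, led by Dcxr, an enzyme of xylulose metabolism (2.09 ± 0.22, limma, adjusted p = 0.0145), and Cpt1c, a brain-type carnitine palmitoyltransferase (1.52 ± 0.14, limma, adjusted p = 0.0142). Dcxr was at 10.4 and 13.2 FPKM with siRpl14, against 2.56 and 1.49 FPKM with siRpl11 and 6.42 and 3.75 FPKM with siNT. The preset anchors of this list were not called. The differences were 0.10 ± 0.22 for Sesn2 and 0.07 ± 0.20 for Ddb2 (limma, adjusted p = 0.816 and 0.861). They were 0.36 ± 0.15 for Rrm2b and 0.44 ± 0.17 for Gdf15 (limma, adjusted p = 0.191 and 0.178). Ddb2 and Gdf15 lay below siNT with both depletions.

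**Figure D3:**
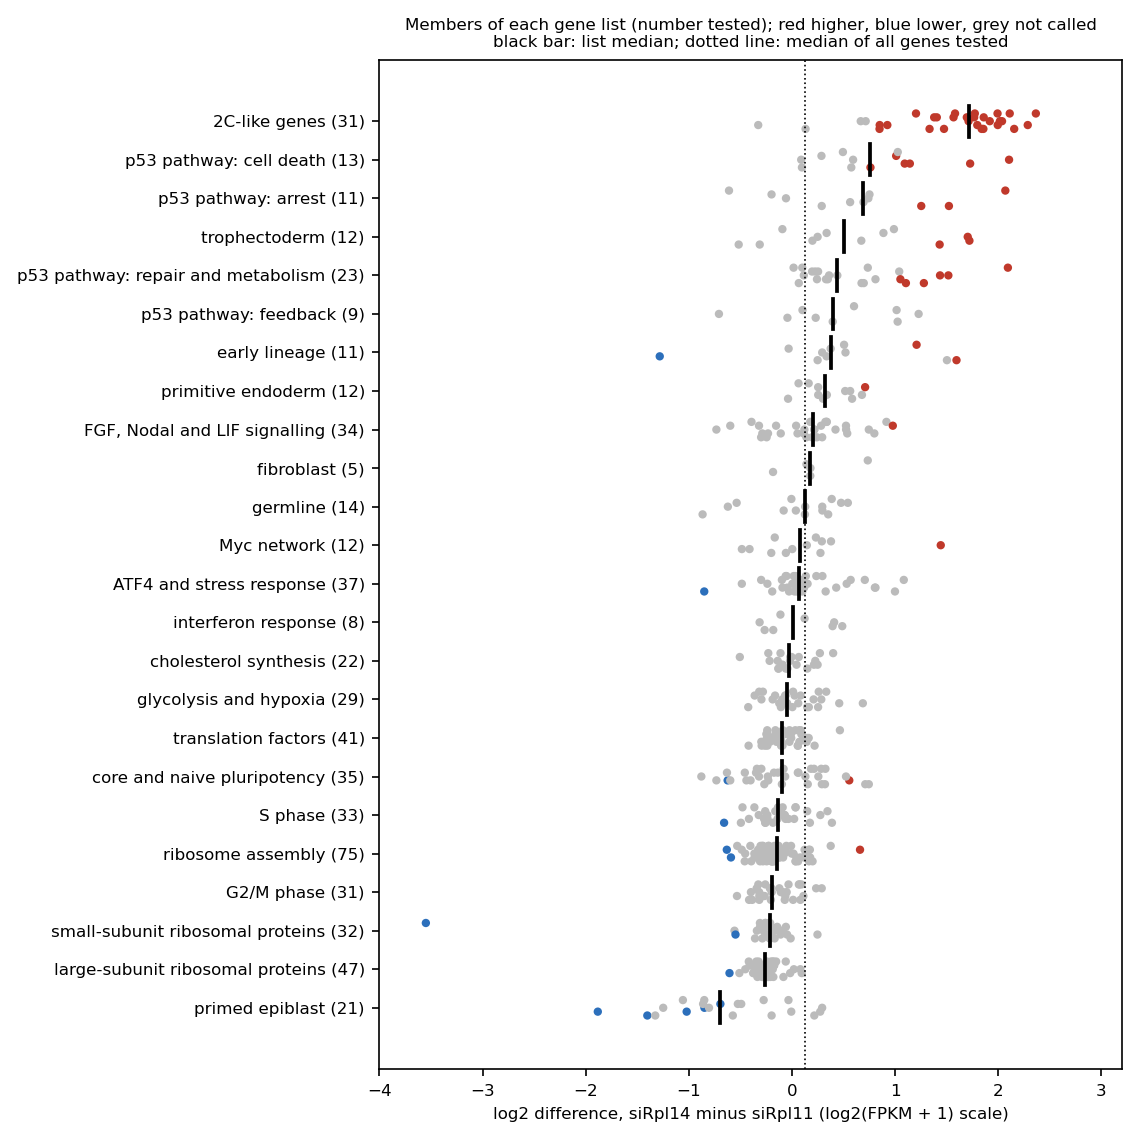
Log2 difference, siRpl14 minus siRpl11 in set 1, of each tested member of 24 gene lists (points; red higher, blue lower, grey not called), with the list median as a black bar and the median of all genes, 0.12, as a dotted line. The 2C-like list lies farthest to the right, with a median of 1.71, and the primed epiblast list farthest to the left, with a median of -0.69.

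Genes of the primed epiblast were lower with siRpl14 than with siRpl11, and for Otx2, Dnmt3a and Dnmt3b siRpl14 lay between siRpl11 and siNT. Of 25 names, 24 are in the table and 21 were tested; 5 were lower (23.8%) and 0 higher, against 0.482% and 6.31% of all genes tested. The median was -0.69, which is 0.82 below that of all genes. Both siRpl14 libraries lay below both siRpl11 libraries for 15 of the 21, beside 15.5% of all genes tested. Without siRpl11 replicate 1, 9 members were lower, and without siRpl11 replicate 2 there were 3. Against the shared siNT libraries the list median was 0.62 with siRpl14 and 1.02 with siRpl11.

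Otx2, a transcription factor of the transition to the primed state, was at 43.9 and 52.2 FPKM with siRpl14, against 91.8 and 105 FPKM with siRpl11 and 9.17 and 12.6 FPKM with siNT. The 3 groups did not overlap, and siRpl14 was lower by 1.02 (log2 difference -1.02 ± 0.14, limma, adjusted p = 0.0202). Both depletions raised Otx2 above siNT, by 2.05 ± 0.17 with siRpl14 (limma, adjusted p = 0.000949) and by 3.08 ± 0.17 with siRpl11 (limma, adjusted p = 0.00112). Dnmt3a, a de novo DNA methyltransferase, was at 33.6 and 37.5 FPKM with siRpl14, against 57.4 and 73.0 FPKM with siRpl11 and 19.5 and 24.2 FPKM with siNT. Dnmt3b, its paralog, was at 43.5 and 36.7 FPKM with siRpl14, against 64.6 and 65.8 FPKM with siRpl11 and 24.4 and 27.1 FPKM with siNT. Both had siRpl14 in the middle without overlap, with differences of -0.85 ± 0.15 for Dnmt3a (limma, adjusted p = 0.0347) and -0.69 ± 0.13 for Dnmt3b (limma, adjusted p = 0.0370). The Dnmt3a call was lost without siRpl11 replicate 2 (limma, adjusted p = 0.123), and the Dnmt3b call without siRpl14 replicate 2 or either siRpl11 replicate (limma, adjusted p = 0.0743 to 0.129).

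Fgf15, a secreted growth factor, and Car14, a membrane carbonic anhydrase, differed in that siNT lay between the depletions. Fgf15 was at 8.24 and 4.61 FPKM with siRpl14, against 22.1 and 29.5 FPKM with siRpl11 and 15.3 and 15.2 FPKM with siNT (-1.88 ± 0.27, limma, adjusted p = 0.0207). Car14 was at 3.01 and 1.94 FPKM with siRpl14, against 9.39 and 6.94 FPKM with siRpl11 and 4.05 and 5.26 FPKM with siNT (-1.40 ± 0.22, limma, adjusted p = 0.0257). Of the defining markers, Pou3f1, a POU-domain factor, was not called (-0.52 ± 0.26, limma, adjusted p = 0.257). Its difference ran from -0.91 to -0.14 with 1 library left out. Another defining marker, Fgf5, was below 1 FPKM in every library of the test. The summed level of the 3 defining markers was 51.4 and 60.5 FPKM with siRpl14, against 101 and 121 FPKM with siRpl11 and 12.8 and 15.6 FPKM with siNT. Most of this sum was Otx2 in every library, so it mainly repeats the Otx2 result.

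The lower genes outside this list were also mostly ones that stood highest with siRpl11. Bend3, a chromatin repressor with BEN domains, was at 16.3 and 16.5 FPKM with siRpl14, against 32.2 and 44.8 FPKM with siRpl11 and 5.61 and 7.98 FPKM with siNT (-1.17 ± 0.18, limma, adjusted p = 0.0240). Myrf, a membrane-bound transcription factor, was at 17.3 and 15.0 FPKM with siRpl14, against 31.7 and 43.4 FPKM with siRpl11 and 14.9 and 16.7 FPKM with siNT (-1.15 ± 0.18, limma, adjusted p = 0.0253). Myrf with siRpl14 overlapped siNT, and Bend3 did not. Efhd1, a calcium-binding mitochondrial protein, and Pax6, a transcription factor of the neural plate and eye, likewise had siRpl14 near siNT. Pax6 was at 2.13 and 1.30 FPKM with siRpl14, against 4.79 and 6.34 FPKM with siRpl11 and 1.91 and 1.75 FPKM with siNT. The differences were -1.50 ± 0.25 for Efhd1 (limma, adjusted p = 0.0298) and -1.28 ± 0.22 for Pax6 (limma, adjusted p = 0.0302, and 0.0553 without siRpl11 replicate 2). Tspan8, a tetraspanin, was at 3.26 and 5.87 FPKM with siRpl14, against 11.6 and 14.7 FPKM with siRpl11 and 0.804 and 0.505 FPKM with siNT (-1.38 ± 0.25, limma, adjusted p = 0.0364, and 0.0605 without siRpl11 replicate 2). Zcwpw1, a reader of histone methylation in meiosis, was lower by 1.16 (log2 difference -1.16 ± 0.16, limma, adjusted p = 0.0205). Glod5, a glyoxalase-domain protein gene, was lower by 1.18 (log2 difference -1.18 ± 0.25, limma, adjusted p = 0.0459, and 0.0654 without siRpl11 replicate 2). Snora44, a small nucleolar RNA, was listed at 0 in both siRpl14 libraries, against 85.2 and 261 FPKM with siRpl11 and 219 and 107 FPKM with siNT. It passed the filter only through the siRpl11 libraries, so its direction was fixed, and its call was lost without siRpl14 replicate 1 or 2 (limma, adjusted p = 0.174 and 0.189).

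**Figure D4:**
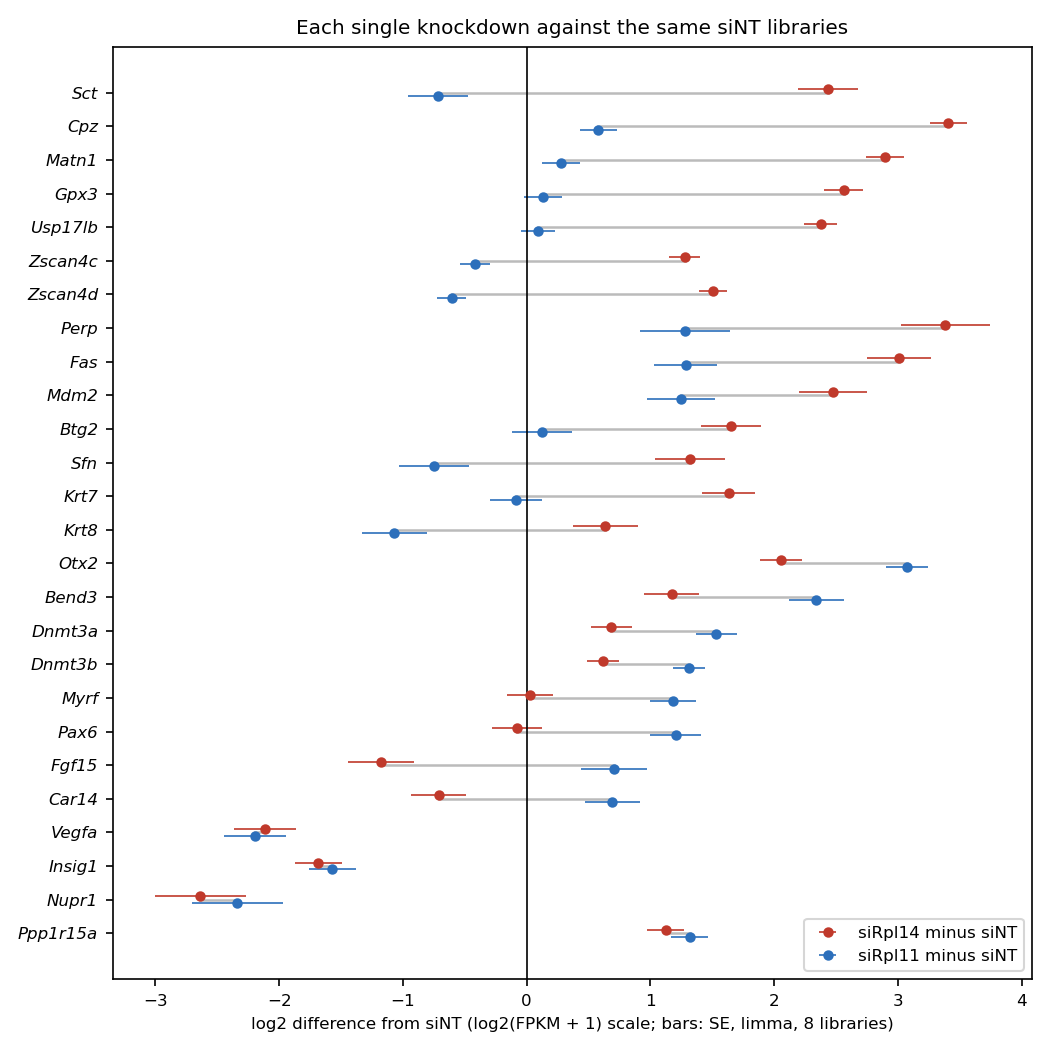
Log2 difference from siNT in set 1 for 26 genes, siRpl14 in red and siRpl11 in blue; points are the limma estimate from 8 libraries and bars its SE, and both colours use the same siNT libraries. The genes from Sct to Krt8 have red to the right of blue, those from Otx2 to Car14 have blue to the right, and the 4 lowest have red and blue close together.

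Of 35 core and naive pluripotency genes tested, 1 was higher and 1 lower, a share near the 6.8% called over all genes, with a median of -0.10, against 0.12 for all genes. Pou5f1, which encodes Oct4, was at 815 and 881 FPKM with siRpl14, against 1088 and 1245 FPKM with siRpl11 and 945 and 950.2 FPKM with siNT (-0.46 ± 0.12, limma, adjusted p = 0.0808). Nanog was at 270.2 and 237 FPKM with siRpl14, against 227 and 191 FPKM with siRpl11 and 349 and 378 FPKM with siNT (0.28 ± 0.14, limma, adjusted p = 0.256). Both depletions left Nanog below siNT in every library, and for Sox2 the 95% interval of the difference ran from -0.42 to 0.14. The 2 calls were Klf5, a factor of the naive state (0.56 ± 0.12, limma, adjusted p = 0.0499), and Dppa3, a maternal factor that protects methylation (-0.62 ± 0.12, limma, adjusted p = 0.0379). Neither call held in a fit lacking 1 library, whichever it was (limma, adjusted p = 0.0629 to 0.299 for Klf5 and 0.0571 to 0.184 for Dppa3).

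Of 12 tested genes of the trophectoderm, the outer layer of the blastocyst, 3 were higher with siRpl14, all of them keratins. Without the 2 members that passed the filter only through siRpl14, 2 of 10 were higher, beside 569 of 11214 genes chosen in the same way. Krt8 was at 6.79 and 13.0 FPKM with siRpl14, against 1.83 and 2.62 FPKM with siRpl11 and 5.78 and 5.64 FPKM with siNT. Krt19 was at 11.8 and 11.5 FPKM with siRpl14, against 4.94 and 2.71 FPKM with siRpl11 and 13.1 and 7.24 FPKM with siNT. For both, only the siRpl11 difference from siNT passed, at -1.07 ± 0.26 for Krt8 (limma, adjusted p = 0.0149) and -1.20 ± 0.38 for Krt19 (limma, adjusted p = 0.0359). Krt7, which passed the filter only through siRpl14, instead stood apart with siRpl14, at 3.24 and 4.85 FPKM, against 0.599 and 0.430 FPKM with siRpl11 and 0.851 and 0.397 FPKM with siNT. The direct difference was 1.70 ± 0.30 for Krt8 (limma, adjusted p = 0.0318), 1.43 ± 0.24 for Krt19 (limma, adjusted p = 0.0284) and, as a description, 1.72 ± 0.20 for Krt7. A further keratin gene, Krt18, was at 6.39 and 10.8 FPKM with siRpl14, against 3.43 and 3.99 FPKM with siRpl11. It was not called (0.99 ± 0.24, limma, adjusted p = 0.0692), and its difference ran from 0.65 to 1.33 with 1 library left out. The summed level of the 6 trophectoderm markers was 17.9 and 32.6 FPKM with siRpl14, against 6.53 and 7.72 FPKM with siRpl11 and 14.9 and 12.9 FPKM with siNT, and Cdx2, the defining factor, did not pass the filter. Among 11 early lineage genes 2 were higher and 1 lower, beside 6.31% and 0.482% of all genes. Nes, an intermediate filament of neural progenitors, was higher (1.21 ± 0.18, limma, adjusted p = 0.0227). So was Neurod1, a neuronal factor, at 24.4 and 39.6 FPKM with siRpl14, against 10.7 and 8.65 FPKM with siRpl11 (1.60 ± 0.24, limma, adjusted p = 0.0240), and Pax6 was the lower one. In the primitive endoderm list 1 of 12 was higher (8.33%, beside 6.31% of all genes), the laminin gene Lamb1 (0.71 ± 0.14, limma, adjusted p = 0.0421, and 0.0959 to 0.107 without siRpl14 replicate 2 or either siRpl11 replicate).

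The other ribosomal protein genes lay below the median of all genes as deposited, and close to it after quantile normalization. Of 79 tested, 0 were higher and 3 lower, beside 0.482% lower over all genes. Both siRpl14 libraries lay below both siRpl11 libraries for 61 of the 79, beside 15.5% of all genes tested. The median was -0.26 for the large subunit and -0.22 for the small subunit as deposited, which is 0.38 and 0.34 below that of all genes. It was -0.40 for the large and -0.36 for the small subunit after median-ratio rescaling, and -0.05 and 0.01 after quantile normalization. In set 3 it was -0.28 for the large and -0.23 for the small subunit, against 0.07 for all genes. Rpl26 was at 771 and 703 FPKM with siRpl14, against 1085 and 1159 FPKM with siRpl11 and 950.0 and 832 FPKM with siNT (-0.61 ± 0.11, limma, adjusted p = 0.0367). Rpsa was at 1944 and 1829 FPKM with siRpl14, against 2824 and 2691 FPKM with siRpl11 and 2522 and 1859 FPKM with siNT (-0.55 ± 0.10, limma, adjusted p = 0.0386). Both calls were lost without siRpl14 replicate 2 or either siRpl11 replicate (limma, adjusted p = 0.0739 to 0.194). Rps27 was at 6.42 and 5.74 FPKM with siRpl14, against 47.9 and 139 FPKM with siRpl11, but its siNT libraries stood at 139.9 and 7.34 FPKM, so the siNT libraries alone span nearly the whole range. Its call (limma, adjusted p = 0.0180) was lost without siRpl14 replicate 1 or 2 (limma, adjusted p = 0.304 and 0.306). Ribosomal protein genes have many near-identical pseudogenes, and reads may be divided among them. Rpl5, the partner of Rpl11, had a 95% interval of -0.68 to 0.06 (limma, adjusted p = 0.260).

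Of 75 ribosome assembly factors tested, 1 was higher and 2 lower (2.67%), beside 6.31% higher and 0.482% lower over all genes. Both siRpl14 libraries lay below both siRpl11 libraries for 44 of the 75, beside 15.5% of all genes tested. They lay above both for 6, beside 41.7%. The median was -0.15, which is 0.27 below that of all genes. Npm1, the nucleolar chaperone nucleophosmin, was at 1767 and 1500 FPKM with siRpl14, against 2418 and 2489 FPKM with siRpl11 and 1298 and 1420 FPKM with siNT (-0.59 ± 0.12, limma, adjusted p = 0.0451). Nop56, a core protein of methylation guide particles, was at 232 and 242 FPKM with siRpl14, against 340.4 and 398 FPKM with siRpl11 and 201 and 208 FPKM with siNT (-0.63 ± 0.13, limma, adjusted p = 0.0419). For both, siRpl11 stood farthest from siNT, and the list median against siNT was 0.28 with siRpl14 and 0.51 with siRpl11. Polr1e, a subunit of RNA polymerase I, was the higher one (0.66 ± 0.13, limma, adjusted p = 0.0424). None of the 3 calls held in all 4 fits with 1 library left out. Npm1 and Polr1e were lost without siRpl14 replicate 2 or either siRpl11 replicate (limma, adjusted p = 0.0910 to 0.194 and 0.0938 to 0.184). Nop56 was lost without either siRpl14 replicate or siRpl11 replicate 2 (limma, adjusted p = 0.0588 to 0.235).

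The stress, metabolism and proliferation lists are small, and their counts are to be read beside the 6.8% of all genes called. In the cholesterol synthesis list 0 of 22 genes were called, in the glycolysis and hypoxia list 0 of 29, in the G2/M list 0 of 31 and among translation factors 0 of 41. Both siRpl14 libraries lay below both siRpl11 libraries for 12 of 31 G2/M, 13 of 33 S-phase and 14 of 41 translation factor genes. They lay above both for 0, 1 and 7 of them. Over all genes tested the shares were 15.5% below and 41.7% above. Against siNT, the cholesterol synthesis list had a median of -0.68 with siRpl14 and -0.61 with siRpl11. The glycolysis and hypoxia list had -0.87 with siRpl14 and -0.83 with siRpl11, and all genes tested had 0.055 with siRpl14 and -0.089 with siRpl11. Both values rest on the same siNT libraries. Vegfa, the hypoxia-induced angiogenic factor, was at 8.65 and 6.15 FPKM with siRpl14, against 8.14 and 5.73 FPKM with siRpl11 and 32.6 and 37.4 FPKM with siNT. Insig1, a sterol sensor, was at 18.3 and 14.6 FPKM with siRpl14, against 19.8 and 15.9 FPKM with siRpl11 and 53.6 and 55.6 FPKM with siNT. The knockdown groups overlapped for both genes and lay below siNT, and the 95% interval of the direct difference was -0.46 to 0.62 for Vegfa and -0.53 to 0.31 for Insig1. Nupr1, a stress-induced chromatin protein, was at 15.5 and 6.68 FPKM with siRpl14, against 16.4 and 9.995 FPKM with siRpl11 and 72.2 and 66.0 FPKM with siNT, with an interval of -1.25 to 0.65. Ppp1r15a, which restores translation after stress, was raised above siNT by 1.13 ± 0.15 with siRpl14 (limma, adjusted p = 0.00312) and by 1.32 ± 0.15 with siRpl11 (limma, adjusted p = 0.00239), and its direct interval was -0.54 to 0.16. For Utp20, a factor of small-subunit assembly, the interval was -0.30 to 0.53.

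In the ATF4 and stress list 1 of 37 genes was lower, the arginine transporter Slc7a3. It was at 102 and 80.5 FPKM with siRpl14, against 162 and 166 FPKM with siRpl11 and 86.5 and 93.7 FPKM with siNT (-0.85 ± 0.15, limma, adjusted p = 0.0306), and was not called without siRpl14 replicate 2 or siRpl11 replicate 2 (limma, adjusted p = 0.0524 and 0.0648). In the S-phase list 1 of 33 was lower, the chromatin remodeller Hells (-0.66 ± 0.14, limma, adjusted p = 0.0459), which was lost without siRpl14 replicate 1 or either siRpl11 replicate (limma, adjusted p = 0.0504 to 0.221). In the signalling list 1 of 34 was higher, Junb, a subunit of the AP-1 factor. It was at 37.0 and 37.3 FPKM with siRpl14, against 18.3 and 18.5 FPKM with siRpl11 and 27.7 and 26.6 FPKM with siNT (0.98 ± 0.11, limma, adjusted p = 0.0170), with siNT between the depletions. In the Myc network list 1 of 12 was higher, Mxd4, a partner of Max that opposes Myc (1.44 ± 0.18, limma, adjusted p = 0.0180). None was called among 14 germline, 8 interferon response and 5 fibroblast genes tested.

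The called genes can be sorted by where their siNT mean lay. Of the 734 higher genes, siNT lay between the depletions and nearer siRpl11 for 264 (36.0%), and between and nearer siRpl14 for 193 (26.3%). It lay below both for 170 (23.2%) and above both for 107 (14.6%). Zscan4c and Sct are of the first kind, Krt19 of the second, and Perp, Fas and Cpz of the third. Of the 56 lower genes, siNT lay below both for 30 (53.6%), as for Otx2 and Bend3, and between and nearer siRpl14 for 16 (28.6%), as for Pax6 and Zcwpw1. Of the 10836 genes not called, siNT lay below both for 39.4% and above both for 42.2%. For these it lay between and nearer siRpl11 in 8.54%, and between and nearer siRpl14 in 9.82%. Called genes were chosen by the gap between the depletions, so siNT had more room to lie within it. Since siNT is also shared by both differences, all these shares are descriptions and were not tested.

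Set 3 gave a check in libraries that share no sample with set 1, with 1 siRpl11 library. Of 13497 genes tested, 4 (0.0296%) were called, all higher, and 1072 had an unadjusted p under 0.05. They were Rpl11 itself, with 736 and 698 FPKM with siRpl14, against 161 FPKM with siRpl11 (2.14 ± 0.17, limma, adjusted p = 0.0112), and Rnasek, Tnfrsf18 and 4933428G20Rik. Rnasek was listed at 0 in the siRpl11 library, against 96.5 and 71.7 FPKM with siRpl14, and in set 1 it was at 89.9 and 141 FPKM with siRpl14, against 88.4 and 113 FPKM with siRpl11. Tnfrsf18 too was listed at 0 in that library, and along with 4933428G20Rik it was under 1 FPKM in all 4 libraries of the test in set 1. Without either siRpl14 library, 1 gene was called. Rpl14 was at 329 and 302 FPKM with siRpl14, against 1018 FPKM with siRpl11 and 1361 and 1094 FPKM with siNT.

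Directions in set 3 can be set beside those of set 1. Of 653 genes called higher in set 1 and tested in set 3, 505 (77.3%) had a positive difference, against 54.1% of all 10993 genes tested in both, and in 57.9% both siRpl14 libraries exceeded the siRpl11 library, against 35.9%. Of 51 called lower in set 1, 39 (76.5%) had a negative difference, against 42.5%, and in 64.7% both siRpl14 libraries were below, against 27.7%. All genes share the single siRpl11 library here, so they do not count as independent. Calls that passed the set 1 filter only through siRpl14 were not set apart. Genes listed at 0 in the siRpl11 library could not have a negative difference, so these shares are descriptions. The 2C-like list had a median of 1.52 over 28 genes, with both siRpl14 libraries above siRpl11 for 21 of them, beside 34.1% of all genes. Members listed at 0 with siRpl11, such as Zscan4c, Usp17lb and Tmem92, could not differ the other way. Unlike in set 1, members that passed the filter through siRpl14 were not set apart, so this count and median are descriptions. Zscan4c was at 11.3 and 9.88 FPKM with siRpl14, and listed at 0 with siRpl11, against 3.37 and 2.14 FPKM with siNT. Gm5039 was at 53.1 and 78.2 FPKM with siRpl14, against 5.796 FPKM with siRpl11 and 15.4 and 2.56 FPKM with siNT. Zscan4d overlapped siNT, at 1.77 and 6.26 FPKM with siRpl14, against 1.52 FPKM with siRpl11 and 2.09 and 4.04 FPKM with siNT.

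The p53 list had a median of 0.41 over 57 genes in set 3, and Perp stood at 95.01 and 81.3 FPKM with siRpl14, against 14.2 FPKM with siRpl11 and 4.98 and 3.10 FPKM with siNT. Mdm2 was at 143 and 128 FPKM with siRpl14, against 59.1 FPKM with siRpl11 and 20.2 and 14.9 FPKM with siNT. The order of the groups was the one seen in set 1 for both genes. Trp53i11 and Ephx1, called higher in set 1, had differences of -0.83 and -1.15 in set 3. Ms4a10, also called higher in set 1, was listed at 0 in both siRpl14 libraries, against 6.71 FPKM with siRpl11. It did not pass the filter of the set 3 fit. Of the genes called lower in set 1, Glod5, Dppa3 and Npm1 had positive differences (1.43, 0.30 and 0.064). The primed list had a median of -0.47 over 22 genes, with both siRpl14 libraries below siRpl11 for 13, beside 26.2% of all genes. Otx2 was at 18.5 and 16.3 FPKM with siRpl14, against 42.6 FPKM with siRpl11 and 12.1 and 6.22 FPKM with siNT. Pax6, in contrast, was at 31.0 and 24.2 FPKM with siRpl14, against 24.98 FPKM with siRpl11, so its set 1 difference was not seen. Dnmt3b was at 27.4 and 17.2 FPKM with siRpl14, against 26.1 FPKM with siRpl11 and 18.2 and 17.2 FPKM with siNT, so siRpl14 overlapped both. Pou3f1 had a positive difference (0.25), and Dnmt3a and Fgf15 had negative ones (-0.72 and -3.02). Sct was listed at 0 in all of these libraries. Rpl26 was at 0.233 and 0.128 FPKM with siRpl14, against 468 FPKM with siRpl11 and 333 and 582 FPKM with siNT. Its difference of -8.64 ± 2.61 was not called (limma, adjusted p = 0.478), and was far larger in size than the -0.61 of set 1.

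**Figure D5:**
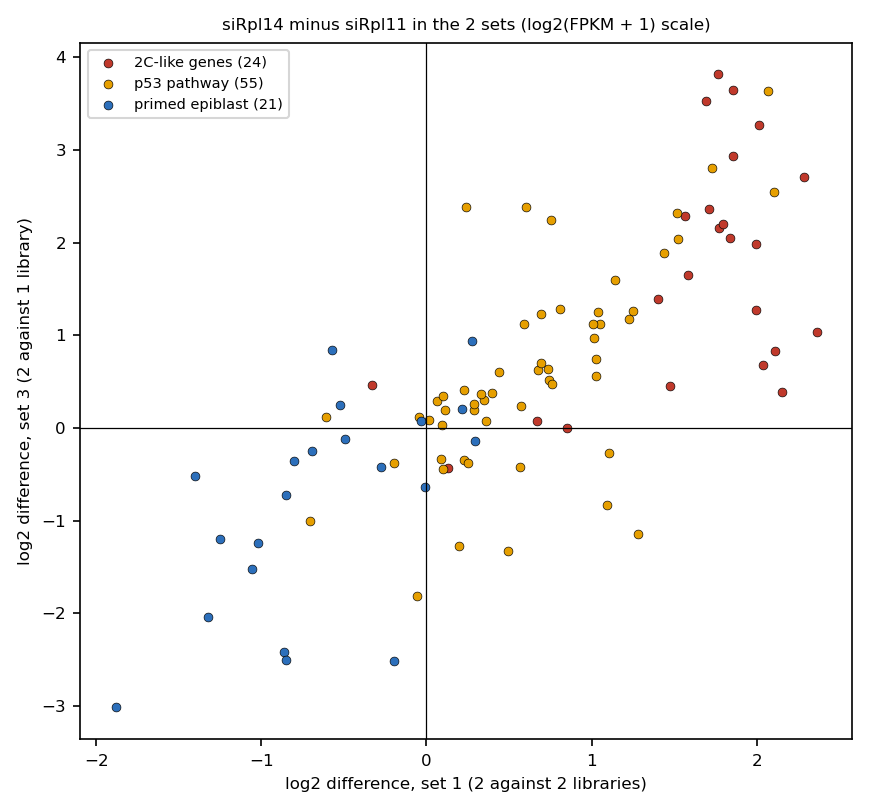
Log2 difference, siRpl14 minus siRpl11, of list members in set 1 (x axis, 2 against 2 libraries) and set 3 (y axis, 2 against 1 library), one point per gene tested in both. Most 2C-like genes lie in the upper right and most primed epiblast genes in the lower left.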

How the data were processed

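The authors deposited FPKM values in 2 tables with 1 column per library, made with STAR and Cuffnorm and mm9 as the build, per the submitters' processing notes. For versions, annotation, strand setting and normalization, the entry is: not given in the sources used here. Each test stayed within a table, because normalization may differ between tables. Libraries were assigned to sets by table and title style; the 4 libraries of set 2, with 1 per kind, were not used.

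From these values, log2(FPKM + 1) was fitted with limma 3.58.1 (trended, robust empirical Bayes, statmod 1.5.0) in R 4.3.3, keeping genes that reached 1 FPKM in 2 or more of the libraries fitted. Benjamini-Hochberg adjustment ran over all genes tested, with a threshold of 0.05. The direct comparison was fitted on 4 libraries, the differences from siNT came from a fit of the 8 libraries of set 1 (the double knockdown included), and the set 3 check from a fit of its 10 libraries, in which the lone siRpl11 library was assumed to vary like the other groups. Differences are siRpl14 minus siRpl11 and understate changes of low genes; errors are SE, and intervals cover 95%. On simulated data made from these libraries, 100% of 100 genes changed by 1 and 100% of 100 changed by 2 on the log2 scale were recovered, with 8 false calls among 11413 genes. The simulated noise was independent between genes and libraries, its size was set by expression level alone, and changed genes averaged at least 5 FPKM. Replicates of some real genes, such as Rpl14, differed more widely, so the simulation does not give the power or error rate of the real test.

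The 24 lists hold 697 entries; 18 have no row in the table. Members, lists and tests were chosen with earlier results of these data known. Named genes were drawn from the siRNA targets, preset anchors of each list and up to 4 called members per list with the largest difference. To these came the 12 highest and 12 lowest calls with a mean of at least 5 FPKM in the higher group. Some preset anchors are not described, and those left out were not called or not tested. Pramef12, Nelfa, Pif1, Rnasek, Tnfrsf18 and 4933428G20Rik were added after their values were seen. Other settings tried were the replicate block, all 8 libraries, pseudocounts of 0.1 and 5, 2 other filters, 2 scalings, no robust moderation and leaving out each library. Promoters and the motif TATAAA came from RefSeq promoters on GRCm38.p6.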

Additional observations from a re-analysis of the deposited data

How the results depend on the processing

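The counts of higher and lower genes were 1452 and 176 with all 8 libraries of set 1 in the fit, 13 and 1 with no filter on low values, 425 and 37 with a filter at 5 FPKM, 194 and 33 after quantile normalization and 444 and 93 after median-ratio rescaling. Leaving out 1 library gave 316 to 772 higher and 12 to 73 lower. With no filter 6 2C-like, 0 p53 and 0 primed epiblast members were called, with the filter at 5 FPKM 16 2C-like members, and after quantile normalization 6 p53 members; leaving out 1 library gave 18 to 27, 13 to 28 and 3 to 9. Set 3 gave 252 calls from its 3 libraries alone, 14 with the filter at 5 FPKM and 1 without either siRpl14 library. The causes were not tested. Pseudocounts of 0.1 and 5 and fitting without robust moderation kept each set 1 count within 1.5 times.

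Replicate numbers are shared between the groups, but the labels do not say that they pair samples; with 2 pairs, same-numbered deviations correlated at r = 0.455. With the number as a block there were 3083 higher and 822 lower genes from 4 libraries, with 35 p53 and 14 primed members, and 1005 and 85 from 8 libraries. Mdm2 was called under both blocks (limma, adjusted p = 0.000587 and 0.0445), and Cdkn1a, Pramef12, Trp53 and Pou3f1 under the block of 4 libraries.

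Of the named genes tested in each setting, 53 lost their call with no filter, 25 after quantile normalization and 6 after median-ratio rescaling. Log2 differences of uncalled genes that changed sign are given here, but Sesn2, Ddb2, Rrm2b and Gdf15 were not followed across settings. After median-ratio rescaling, Nelfa was at -0.0077, Bax at -0.052, Vegfa at -0.041 and Utp20 at -0.022, and after quantile normalization Vegfa was at -0.15. Leaving out 1 library gave -0.66 to 0.0098 for Pif1, -0.056 to 0.23 for Bax, -0.14 to 0.30 for Vegfa, -0.27 to 0.043 for Insig1, -0.85 to 0.25 for Nupr1 and -0.11 to 0.34 for Utp20. FPKM carries no depth, so genes near 1 FPKM are the least certain.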
